A study of Rattus norvegicus with 16 samples.

Results

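The genes described here encode the proteins of the cytosolic ribosome, the factors that bring it to a messenger RNA and some regulators of those factors. They were chosen by symbol among the genes that have a probe set annotated to 1 symbol. These were the Rpl and Rps genes of the cytosolic ribosome, with Rpsa, and every gene whose symbol begins with Eif. Of the P-stalk genes only Rplp0 had such a probe set. Ribosomal protein genes without one are not in the class, which is therefore a part of the ribosome. The rule found 96 of 14218 genes, of which 47 were ribosomal protein genes (33 of the large and 14 of the small subunit). The other 49, whose symbols begin with Eif, are called initiation factor genes here. They include 4 kinases of eIF2 and 4 genes grouped as eIF4E-binding proteins, which are regulators of initiation. Counts and medians of the class hold all 49. Of the 96 genes, 71 had 1 such probe set and 25 had more, and in those the brightest set, by its average across all 16 arrays, represented the gene. A further 41 probe sets carried a ribosomal (36) or initiation factor (5) symbol together with other symbols, mostly of pseudogenes or near copies. They lay outside the rule and are described separately.

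RNA came from whole left ventricle of adult male Sprague-Dawley rats, of which 12 had an aortocaval fistula (ACF) and 4 were controls. An ACF is a surgical opening between the abdominal aorta and the inferior vena cava that overloads the heart with volume. There were 4 arrays in each of 4 groups: control, and ACF at 8, 16 and 24 weeks. The study placed compensated hypertrophy at 8 weeks and heart failure at 16 weeks.

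The control arrays are titled as baseline in the labels, whereas the methods describe sham-operated controls. If they are baseline hearts, age and surgery go with ACF and cannot be told apart from it. The titles of the last group say 24 weeks and its descriptions read 24, 25, 26 and 27. The methods give another rat array and another RNA extraction than the deposited probe sets and labels do. Hearts in which the fistula was later closed were not analysed here.

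Translation of most messenger RNAs starts when the cap-binding complex eIF4F (the cap-binding protein eIF4E, the scaffold eIF4G and the helicase eIF4A) recruits the small ribosomal subunit, which already carries eIF1, eIF1A, eIF3 and eIF2 with the initiator tRNA. After the start codon is found, eIF5 and eIF5B help the large subunit to join. The messenger RNAs of ribosomal proteins themselves begin with a run of pyrimidines, the 5′ terminal oligopyrimidine (TOP) motif, through which growth signals set how much of them is translated. In striated muscle a few of the general components have muscle-specific relatives: Rpl3l takes the place of Rpl3 in some ribosomes, and eEF1A2 largely replaces eEF1A1 after birth.

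All levels below are deposited log2 values minus the median of all probe sets on the same array, and differences are on that log2 scale. The centring mattered here because the arrays fell into 2 levels: 9 arrays had medians of 6.13 to 6.17 (every control array, with 3 of 8 weeks and 2 of 16 weeks) and 7 had medians of 5.92 to 5.96 (every array of 24 weeks, with 1 of 8 weeks and 2 of 16 weeks). The labels do not say what the levels are. As deposited, the median gene was 0.12 lower at 16 weeks and 0.21 lower at 24 weeks than in control. Heart muscle markers were among the high values on every array: the mean of the 7 measured cardiomyocyte genes lay between 7.38 and 7.91 above the array median. Over all genes, 829 were higher and 463 lower at 16 weeks than in control at an adjusted p under 0.05, a split that became 359 against 1006 on the arrays as deposited and 809 against 757 after quantile normalization. At 24 weeks the numbers were 87 higher and 42 lower, and as deposited 81 against 1594.

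At 16 weeks of ACF, 6 of the 96 genes passed the test against control. Rpl3, Rps23 and Rps24 of the ribosomal proteins and Eif4a1 and Eif1a of the initiation factors rose, which is 5.21% of the 96 where 5.83% of all genes rose. Rpl3l alone fell, which is 1.04% where 3.26% of all genes fell. The share that rose was near that of all genes, and the share that fell is a single gene. No member passed at 8 weeks, where 0.0492% of all genes were higher and 0.00703% lower. No member passed at 24 weeks either, where 0.612% of all genes were higher and 0.295% lower. At an unadjusted p under 0.05, 0 members at 8 weeks, 23 at 16 weeks (21 higher, 2 lower) and 11 at 24 weeks (9 higher, 2 lower) differed from control. These are 0%, 24.0% and 11.5% of the 96, where 7.82%, 24.3% and 16.2% of all genes did. The 3 comparisons share the control arrays.

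The largest rise and the only fall that passed among the 96 genes were found in a pair of paralogs, Rpl3 and Rpl3l. Both encode the large-subunit protein uL3, which reaches the peptidyl transferase centre, Rpl3 in most tissues and Rpl3l in skeletal and heart muscle. Rpl3 was at 5.31, 5.26, 5.27 and 5.48 in control hearts, at 5.55, 5.75, 5.75 and 5.46 at 8 weeks, at 6.55, 6.14, 5.76 and 5.84 at 16 weeks and at 5.74, 6.04, 5.94 and 5.56 at 24 weeks. Every heart at 16 and 24 weeks was above every control heart, while at 8 weeks 1 heart fell within the control range. Rpl3 was 1.68-fold higher at 16 weeks than in control (log2 0.74, SE 0.15, adjusted p = 0.00614). The log2 differences from control of 0.30 at 8 weeks (adjusted p = 0.675) and 0.49 at 24 weeks (adjusted p = 0.115) did not pass.

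Rpl3l ran the other way. Its levels were 5.78, 5.87, 5.60 and 5.62 in control hearts, 5.32, 5.29, 5.47 and 5.48 at 8 weeks, 3.74, 4.86, 4.96 and 5.18 at 16 weeks and 5.51, 4.82, 5.14 and 5.28 at 24 weeks. All 12 ACF hearts were below all 4 control hearts. At 16 weeks Rpl3l was at 0.489 of the control level (log2 −1.03, SE 0.22, adjusted p = 0.00953). The differences of −0.33 at 8 weeks (adjusted p = 0.818) and −0.53 at 24 weeks (adjusted p = 0.253) did not pass.

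A single heart, replicate 1 at 16 weeks, had both the highest Rpl3 and the lowest Rpl3l of the 16. Without it the change at 16 weeks was 0.58 for Rpl3 (adjusted p = 0.016) and −0.72 for Rpl3l (adjusted p = 0.00859). Both calls were kept when any 1 of the 16 arrays was left out. Within the 9 arrays of the higher level the changes were 1.02 for Rpl3 (adjusted p = 0.00127) and −1.42 for Rpl3l (adjusted p = 0.00375). The only 2 hearts of 16 weeks there are replicates 1 and 2. They had the 2 highest Rpl3 and the 2 lowest Rpl3l levels of their group. A second, dimmer probe set of Rpl3 (mean deposited level 7.76, against 11.8 for the first) gave 0.29 (SE 0.18) and missed the threshold (adjusted p = 0.43 with every probe set tested). Rpl3l had 1 probe set.

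**Figure D1:**
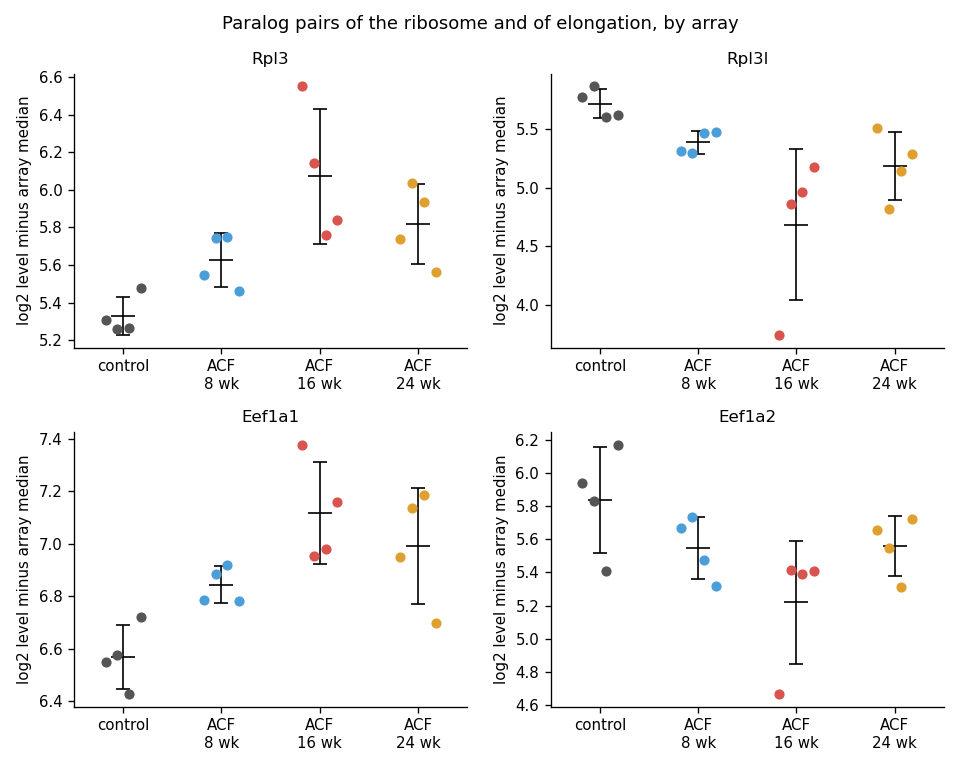
Levels of Rpl3, Rpl3l, Eef1a1 and Eef1a2 (log2 value minus the array median, vertical axes) in each of the 4 arrays of control and of ACF at 8, 16 and 24 weeks. Points are arrays, and black bars are the group mean with its SD. Rpl3 and Eef1a1 lie higher and Rpl3l and Eef1a2 lower at 16 weeks than in control, with replicate 1 of 16 weeks (leftmost point of its group) at the extreme of all 4.

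In the other muscle-specific pair, which belongs to elongation and not to the 96 genes, the brightest probe sets also changed in opposite directions. Eef1a1, the elongation factor that delivers aminoacyl-tRNA in most tissues, was at 7.38, 6.95, 6.98 and 7.16 at 16 weeks, against 6.55, 6.58, 6.43 and 6.72 in control (log2 0.55, SE 0.12, adjusted p = 0.0085). Eef1a2, its relative of muscle and neurons, was at 4.66, 5.41, 5.39 and 5.41 at 16 weeks, against 5.94, 5.83, 5.41 and 6.17 in control (−0.62, SE 0.18, adjusted p = 0.0373). For Eef1a2 the control replicate 3 lay within the 16-week range, and without replicate 1 of 16 weeks the change was −0.43 and no longer passed (adjusted p = 0.117). It did not pass without control replicates 1, 2 or 4 either (adjusted p = 0.102, 0.075 and 0.105). The fall rested on its brightest probe set, since the dimmest gave −0.07 (adjusted p = 0.777) and the mean of all its probe sets −0.34 (adjusted p = 0.0802). It was not called with only the 8 arrays compared (adjusted p = 0.0857). Eef1a1 passed with any 1 array of either group left out (adjusted p from 0.0099 to 0.0317). Neither passed at 8 or 24 weeks: Eef1a1 differed from control by 0.27 and 0.42 and Eef1a2 by −0.29 and −0.28.

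Rps24 and Rps23, proteins of the small subunit (eS24, needed in processing of the small-subunit ribosomal RNA, and uS12 at the decoding centre), were the other ribosomal proteins that passed at 16 weeks. Rps24 was at 7.59, 7.40, 7.36 and 7.43 at 16 weeks, against 7.20, 7.20, 6.91 and 7.12 in control, 1.26-fold higher (log2 0.33, SE 0.10, adjusted p = 0.0411). Rps23 was at 7.03, 6.86, 6.71 and 6.75 at 16 weeks, against 6.46, 6.62, 6.50 and 6.56 in control, 1.24-fold higher (0.31, SE 0.09, adjusted p = 0.0482). All 4 hearts at 16 weeks exceeded all 4 control hearts for both genes, and the call of each was close to the threshold. With 1 array left out, Rps24 still passed in 7 of 16 cases and Rps23 in 3, and neither passed without replicate 1 (adjusted p = 0.122 and 0.15) or 2 (0.0679 and 0.101) of 16 weeks or without any 1 control array (0.0557 to 0.134 for Rps24 and 0.0638 to 0.135 for Rps23). A second probe set of Rps24 with a mean deposited level of 4.83, against 13.4 for the first, gave −0.02.

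Just outside the threshold were Rpl19 (0.24, adjusted p = 0.065) and Rpl6 (0.31, adjusted p = 0.0809), both of the large subunit, of which Rpl6 was chosen for mention after its value was seen. Rpl19, among the 3 brightest ribosomal proteins, was at 7.51, 7.44, 7.37 and 7.36 at 16 weeks, against 7.13, 7.22, 7.13 and 7.23 in control. These groups did not overlap. Rps29 and Rpl37a, the other bright ones, differed from control by 0.11 (adjusted p = 0.416) and 0.14 (adjusted p = 0.327) at 16 weeks.

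**Figure D2:**
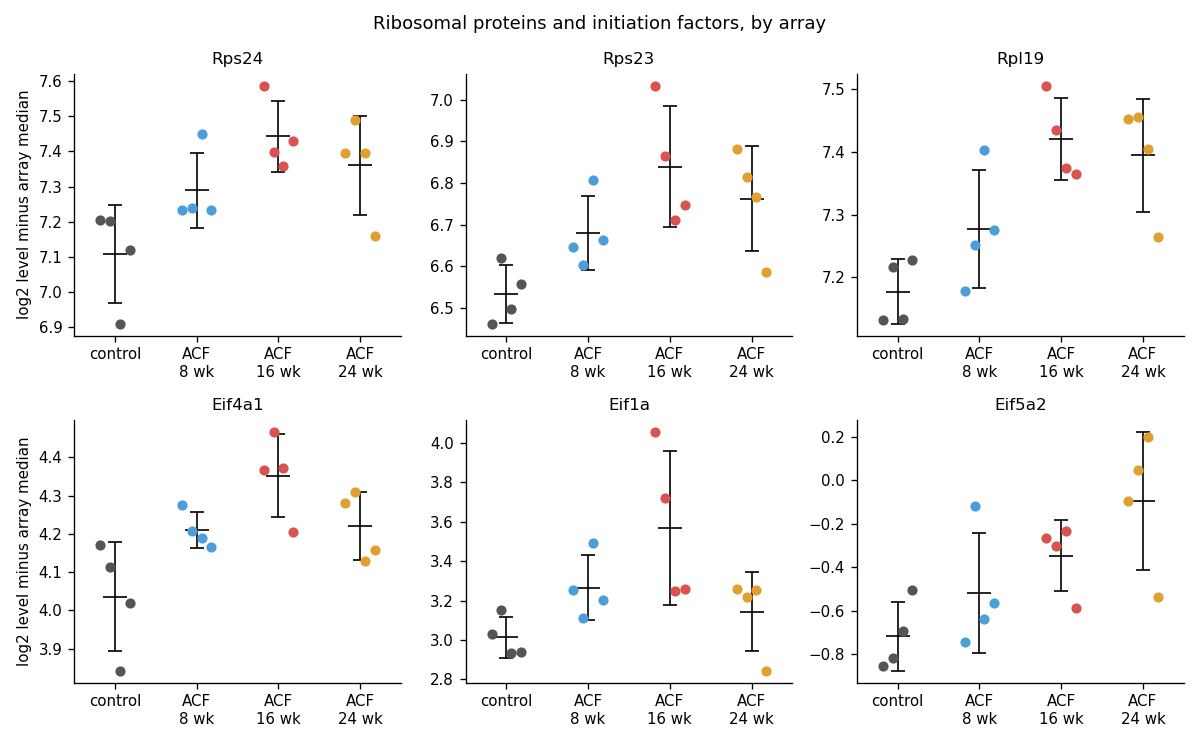
Levels of Rps24, Rps23, Rpl19, Eif4a1, Eif1a and Eif5a2 (log2 value minus the array median, vertical axes) in each array of control and of ACF at 8, 16 and 24 weeks. Points are arrays and black bars are the group mean with its SD. In the first 5 panels the 16-week points lie above the control points, and Eif5a2 is highest at 24 weeks.

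The ribosomal proteins as a whole lay slightly above control. At 16 weeks 42 of the 47 had a log2 difference above 0 and the median was 0.16 (1.12-fold), where 49.6% of all genes were above 0 with a median of −0.00. The median was 0.16 over the 33 genes of the large subunit and 0.15 over the 14 of the small subunit. At 8 weeks 40 of 47 were above 0 with a median of 0.08, and at 24 weeks 39 of 47 with a median of 0.12. On the arrays as deposited the medians were 0.02 at 8 weeks, 0.04 at 16 weeks and −0.09 at 24 weeks, so the direction at 24 weeks holds only relative to the median gene. Relative to the median of all genes, the ribosomal median was 0.11 to 0.21 higher at 16 weeks under the 31 other settings. Many of these cannot move that value, such as the deposited arrays, the replicate block, the other tests and the leaving out of 8-week or 24-week arrays. Within the arrays of the higher level the ribosomal median was 0.21 at 16 weeks and 0.10 at 8 weeks. The 16-week arrays there were replicates 1 and 2, the 2 with the highest ribosomal medians of their group. No control array had the lower level, so 24 weeks could not be set against control within a level. No test was made of these medians, since the genes share their arrays.

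The ranges of the groups describe the same values in another way. They are not separate evidence, and the ribosomal genes varied together, as given below. A small spread within groups also makes a gap between groups easier. The median within-group SD was 0.125 for the 26 ribosomal genes at levels from 12 to 13. It was 0.138 for all 186 genes of that level and 0.185 for all genes from 6 to 8. The shares of all genes given next are over every level and not over genes of like level. In 20 of the 47 ribosomal genes (42.6%) all 4 hearts at 16 weeks were above all 4 control hearts, and 10.1% of all genes were. In 1 of 47 (2.13%), Rpl3l, they were all below, and 6.31% of all genes were. At 8 weeks 1 ribosomal gene was wholly above (Rps24) and 1 wholly below control (Rpl3l), against 3.43% and 2.73% of all genes. At 24 weeks 2 were wholly above (Rpl3 and Rpl19) and 1 wholly below (Rpl3l), against 4.82% and 4.46% of all genes.

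Most ribosomal proteins were among the brightest genes on the array. Their median deposited level was 12.4, against 7.13 for all genes, and 33 of the 47 had a mean level of at least 12, as had 276 of all 14218 genes. The highest value on any array was between 14.4 and 14.7, and Rps29 averaged 13.8. Spread was smaller at this end of the scale: the median within-group SD was 0.0868 for the 90 genes at 13 or more and 0.171 for the 4650 genes below 6. Very bright probe sets can saturate, which would shrink their differences, and how far that happened here was not tested.

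Other genes of like brightness were set beside the ribosomal proteins. At 16 weeks the 39 ribosomal proteins with a mean level of 11 or more, a limit set after the values were seen, had a median difference of 0.17 with 37 above 0. The 617 other genes of that brightness had a median of −0.02, with 44.9% above 0. Over the rest of the scale the median of the other genes was −0.03 below a level of 6, 0.00 from 6 to 8, 0.04 from 8 to 10 and 0.03 from 10 to 11. Of the 8 dimmer ribosomal proteins, Rps13, Rpl30, Rpl28 and Rpl39l1 had mean levels of 4.88, 4.72, 4.94 and 3.75 and differed from control by −0.15, −0.04, 0.24 and 0.07, none past the threshold, and Rpl28 was added to the dimmest 3 after its value was seen. For Rps13, Rpl28 and Rpl30 a bright probe set existed that carried several symbols. Those bright sets gave 0.05, 0.17 and 0.08.

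**Figure D3:**
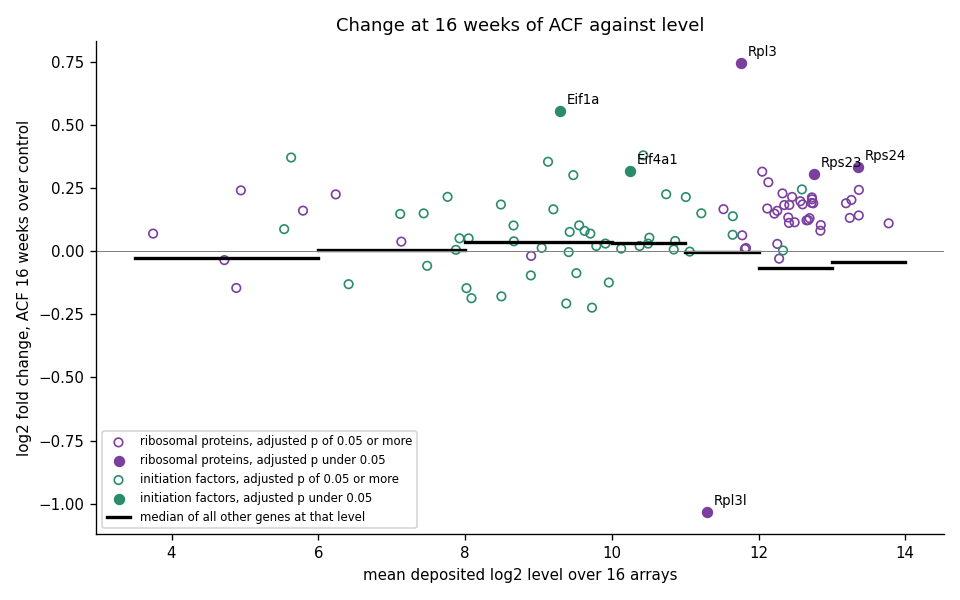
Log2 fold change of ACF 16 weeks over control (vertical axis) against the mean deposited log2 level over 16 arrays (horizontal axis) for the 47 ribosomal proteins and 49 initiation factors. Filled points passed an adjusted p of 0.05, and black lines are the medians of all other genes of that level. Ribosomal proteins above a level of 12 lie mostly between 0.1 and 0.3 while the other genes there have medians below 0.

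The probe sets with several symbols gave a like distribution. Of 36 with a ribosomal symbol, 31 were above 0 at 16 weeks with a median of 0.16 and a range from −0.06 to 0.30. None passed when all probe sets were tested together, and 8 of the 36 had an unadjusted p under 0.05, where 24.3% of all genes did. Such a probe set can detect transcripts of more than 1 gene.

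Each heart's own median over the 39 bright ribosomal proteins showed how far hearts of a group differed. Set against the control mean, it was 0.03, 0.04, −0.07 and 0.01 in the control hearts, 0.08, 0.00, 0.26 and 0.00 at 8 weeks, 0.30, 0.15, 0.10 and 0.10 at 16 weeks and 0.23, 0.16, 0.13 and −0.05 at 24 weeks. All 4 hearts at 16 weeks were above all control hearts. The value at 8 weeks rested on replicate 3 and, to a smaller degree, replicate 1, and at 24 weeks replicate 4 was within the control range. Without replicate 3, the ribosomal median at 8 weeks was 0.01.

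The ribosomal genes varied together. Within groups, the 37 bright ribosomal proteins other than Rpl3 and Rpl3l correlated with each other with a median r of 0.71 over the 16 arrays, which share their normalization, against 0.11 for pairs of the 617 other bright genes. The r of Rpl3 with these 37 had a median of 0.53 and that of Rpl3l a median of −0.22.

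**Figure D4:**
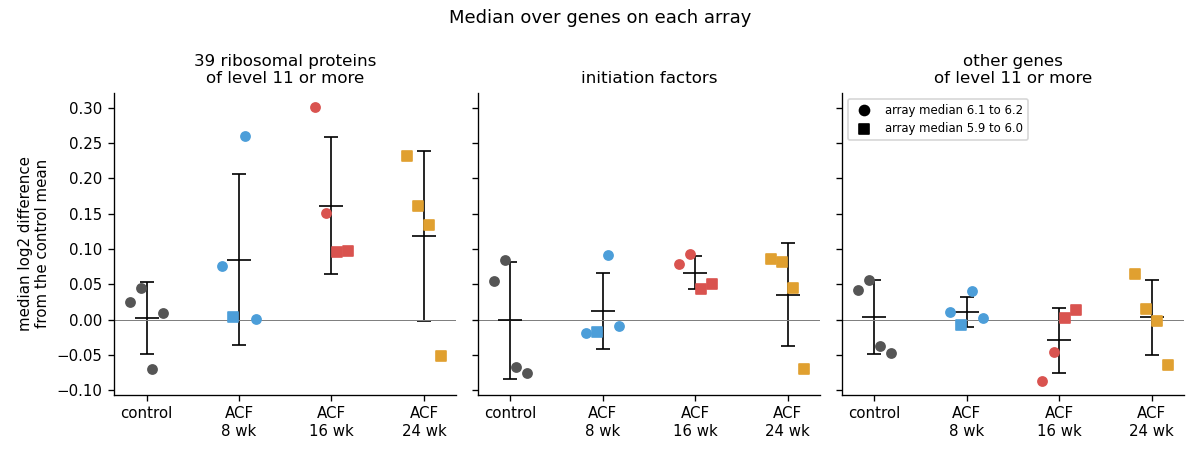
Median over genes of the log2 difference from the control mean (vertical axis) on each array, for the 39 ribosomal proteins of level 11 or more, the 49 initiation factors and the 617 other genes of level 11 or more, in control and ACF at 8, 16 and 24 weeks. Circles are arrays of the higher and squares of the lower array median, and black bars are the group mean with its SD. The ribosomal medians reach 0.30 at 16 weeks, where the other bright genes lie between −0.09 and 0.01.

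Because these genes varied together, the sequence around their annotated start was read. The RefSeq promoter table (build GRCr8) held 40 of the 47 ribosomal genes and 45 of the 49 initiation factor genes. A run of at least 8 bases of C or T on the sense strand, within 10 bases before to 20 bases after the annotated start, was present in 20 of 40 ribosomal genes (50%), in 5 of 45 initiation factor genes (11.1%) and in 10.6% of all 27457 genes in the table. The 30-base windows of 5 of the ribosomal genes named above are shown, picked after their values were seen. The longest run differs widely between these 5 and in Rpl3 is shorter than 8 bases. Run length was not tested against the changes. Capitals mark the longest run, and the annotated start is the base at position 11.
Rpl3 (chr7:113507971-113508000, minus strand): gcctgctcgaTCTCTatcggcggcgtgtgg
Rpl3l (chr10:14258436-14258465, plus strand): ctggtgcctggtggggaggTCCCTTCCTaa
Rps23 (chr2:23814507-23814536, plus strand): ccttcctgCCTCTCTTCTCTCTTTCTCTCg
Rps24 (chr16:96507-96536, plus strand): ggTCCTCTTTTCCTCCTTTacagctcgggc
Rpl19 (chr10:83519054-83519083, plus strand): ccagcaagCTCTTTCCTTTCgctgctgcgt
The longest run was 21 bases in Rps23, 17 in Rps24 and 12 in Rpl19, and each spans the annotated start. In Rpl3 the longest was 5 bases beginning at the start, and in Rpl3l it was 9 bases beginning 9 bases downstream of it. A run of pyrimidines is a description of letters around one annotated start and not a tested TOP motif.

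Other ribosomal genes have paralogs of like name on the array. Rpl7l1, a relative of Rpl7 that acts in ribosome assembly, differed from control by −0.02 at 16 weeks (adjusted p = 0.949) and Rpl7 by 0.10 (adjusted p = 0.575). Rpl26l1 differed by 0.16 and Rpl26 by 0.19, with adjusted p of 0.461 and 0.197. Rpl39l1, whose human counterpart is best known from testis, differed by 0.07 at a level near the bottom of the scale, and Rpl39 by 0.22 (adjusted p = 0.233). Rps27l, a p53 target in human cells, ranged from 0.51 to 1.43 at 16 weeks, against 0.39 to 1.60 in control. No pair but Rpl3 and Rpl3l had a member that passed.

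The initiation factors as a class had medians close to that of all genes. At 16 weeks their median was 0.05 with 37 of 49 above 0, at 8 weeks −0.00 with 24 of 49, and at 24 weeks 0.05 with 33 of 49. The 16-week value depended on the scaling, with a median of 0.01 and 27 above 0 after cyclic loess, 0.00 and 25 after quantile normalization, and −0.07 and 16 on the arrays as deposited, where the median of all genes was −0.12. In 6 of 49 (12.2%) all hearts at 16 weeks were above all control hearts, near the 10.1% of all genes. In none were they all below, as they were in 6.31% of all genes. The median over the class in single hearts was 0.04 to 0.09 at 16 weeks, against −0.08 to 0.08 in control.

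Eif4a1, the main RNA helicase of eIF4F, rose at 16 weeks. It was at 4.37, 4.47, 4.37 and 4.20 at 16 weeks, against 4.17, 4.11, 3.84 and 4.02 in control, 1.25-fold higher (log2 0.32, SE 0.09, adjusted p = 0.0346). The call was lost without any 1 of replicates 1 to 3 of 16 weeks (adjusted p = 0.077, 0.0983 and 0.0694) or of control replicates 2 to 4 (0.0518, 0.117 and 0.0696). Its paralog Eif4a2, which is abundant in muscle and brain, differed by 0.00 (adjusted p = 0.991). The exon junction helicase Eif4a3, also named after its value was seen, differed by 0.10 (adjusted p = 0.511).

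The eIF4G scaffold genes and their relative Eif4g2 pointed in different directions, and none passed. Eif4g1 differed from control by −0.22 at 16 weeks (adjusted p = 0.328), Eif4g2, a relative that does not bind eIF4E, by 0.24 (adjusted p = 0.0674), and Eif4g3, named after its value was seen, by 0.35 (adjusted p = 0.0546). Eif4g2 was at 6.67, 6.67, 6.68 and 6.55 at 16 weeks, against 6.43, 6.54, 6.27 and 6.37 in control, without overlap. The cap-binding protein Eif4e differed by 0.01 (adjusted p = 0.978). Of its inhibitors, the 4E-binding proteins that mTORC1 phosphorylates, Eif4ebp1 differed by 0.10, Eif4ebp2 by −0.18 and Eif4ebp3 by 0.05, none past the threshold. Eif4ebp1 varied widely within groups, from 2.06 to 3.01 at 16 weeks, against 2.43 to 2.71 in control. Within the arrays of the higher level its difference was 0.41 and passed (adjusted p = 0.043), where 12.97% of all genes did. This subset held replicates 1 and 2 of 16 weeks, the 2 highest of their group for Eif4ebp1.

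Eif1a, which encodes eIF1A, a factor that helps hold the small subunit open while it scans, had the largest rise among the initiation factors at 16 weeks. It was at 4.05, 3.72, 3.25 and 3.26 at 16 weeks, against 3.03, 3.15, 2.93 and 2.94 in control, 1.47-fold higher (log2 0.56, SE 0.16, adjusted p = 0.0347). Replicates 1 and 2 of 16 weeks, the ones of the higher array level, were well above replicates 3 and 4. The call was lost without replicate 1 or 2 of 16 weeks (adjusted p = 0.109 and 0.093) and without any 1 control array (0.0507 to 0.0899). Blocking on array level gave a difference of 0.78 (adjusted p = 0.00248). Its 3 other probe sets gave 0.69, 0.74 and 0.71 at 16 weeks, none past the threshold over all probe sets. The X-linked copy Eif1ax differed by 0.03 (adjusted p = 0.885). At 24 weeks Eif1a was 0.13 above control (adjusted p = 0.735).

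Control of eIF2, the factor that carries the initiator tRNA and that stress kinases inactivate, did not show a difference at the RNA level that passed. Eif2s1, the subunit that is phosphorylated, differed from control by 0.08 at 16 weeks (adjusted p = 0.773). The 4 kinases Eif2ak1 (heme-regulated), Eif2ak2 (PKR), Eif2ak3 (PERK) and Eif2ak4 (GCN2) differed by −0.09, −0.06, −0.13 and 0.09. Eif2b5, the catalytic subunit of the exchange factor eIF2B, differed by −0.15 (adjusted p = 0.476). None of the 6 genes of the eIF2 group, the 5 of eIF2B and the 4 kinases passed in any comparison with control.

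Among the 11 subunits of eIF3, the large complex that bridges the small subunit and eIF4G, 10 were above 0 at 16 weeks with a median of 0.06 and none passed. The largest difference was that of Eif3a, the scaffold subunit, at 0.38 (adjusted p = 0.0709), a gene named here after its value was seen.

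Of the late-acting factors, Eif5a, which helps the ribosome through stretches of proline and carries hypusine, differed by −0.00 at 16 weeks (adjusted p = 0.994), and Eif6, which keeps free large subunits apart from small ones, by 0.17 (adjusted p = 0.356). Eif5a2, the second eIF5A gene, differed most at 24 weeks. It was at −0.09, 0.05, 0.20 and −0.54 at 24 weeks, against −0.85, −0.82, −0.70 and −0.50 in control (0.62, SE 0.16, adjusted p = 0.0627). The difference did not pass, and replicate 4 of 24 weeks lay within the control range. Without that array it was 0.77 and passed (adjusted p = 0.0118), and with array level as a block it was 0.47 (adjusted p = 0.406).

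**Figure D5:**
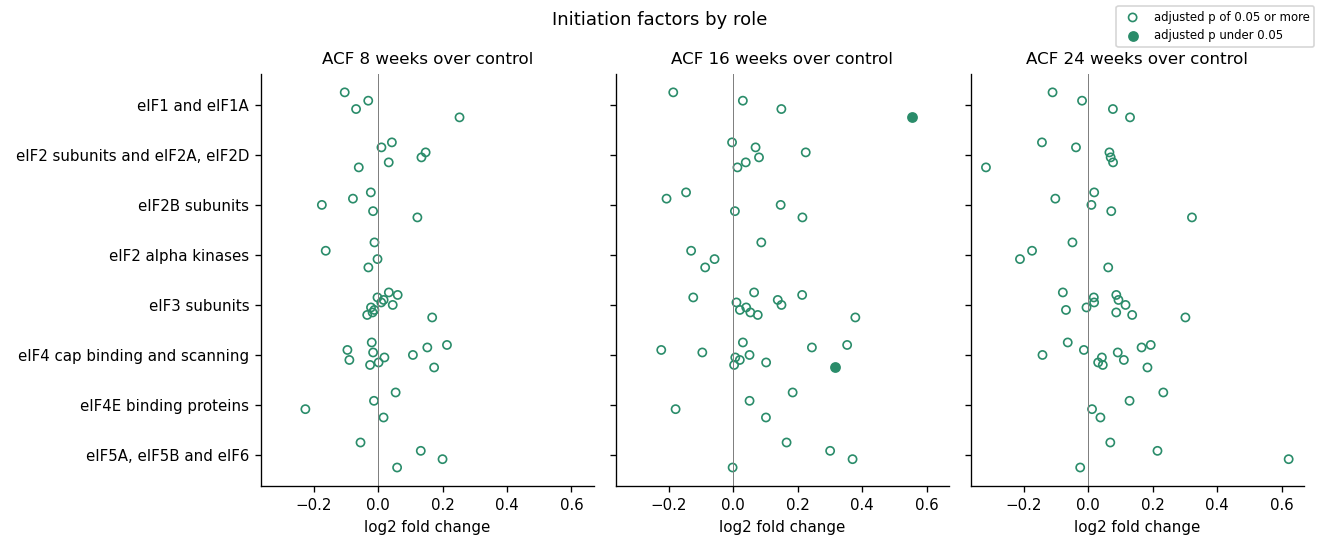
Log2 fold change over control (horizontal axes) of the 49 initiation factor genes, in 8 role groups down the page, for ACF at 8, 16 and 24 weeks from left to right. Each circle is a gene and filled circles passed an adjusted p of 0.05. Eif1a and Eif4a1 at 16 weeks are the only filled points.

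For Eif5, of which no probe set carried that symbol alone, 3 probe sets shared with a pseudogene gave 0.57, 0.31 and 0.43 at 16 weeks. The first passed when all probe sets were tested together (SE 0.15, adjusted p = 0.038). Eif5 triggers GTP hydrolysis by eIF2 at the start codon.

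Genes around translation were counted from lists made for this purpose, and the counts at 16 weeks stand beside the 5.83% of all genes that rose and the 3.26% that fell. Of 17 elongation and release factors, 2 rose at 16 weeks (Eef1a1 and the release factor Etf1, by 0.35, added after its value was seen) and 2 fell (Eef1a2 and the GTPase Gtpbp1, by 0.55 on the log2 scale, adjusted p = 0.0109), with a median of 0.14. Of 12 measured genes with a TOP motif other than ribosomal proteins and initiation factors, 4 rose and none fell, with a median of 0.26. They were Eef1a1, the intermediate filament Vim (0.78, adjusted p = 0.00669), the splicing factor Hnrnpa1 (0.45, adjusted p = 0.0314) and, added after its value was seen, the histone chaperone Nap1l1. Of 65 ribosome biogenesis genes, 2 rose, with a median of 0.09. These were Myc, the transcription factor that drives ribosome production (1.49, SE 0.34, adjusted p = 0.0117), and the small-subunit assembly factor Tsr1 (0.51, adjusted p = 0.0439).

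Of 23 genes of mTORC1 and S6 kinase signalling, Rheb, the GTPase that activates mTORC1, rose (0.28, adjusted p = 0.0387), with a list median of 0.03. Of 26 genes of the integrated stress response, Nupr1 and Slc3a2 rose (0.95 and 0.50, adjusted p = 0.0209 and 0.0452), with a median of 0.20. At 8 weeks none of the genes on these 5 lists passed. At 24 weeks 1 biogenesis gene rose, Myc (1.56, adjusted p = 0.0398), and 1 stress response gene rose, the transcription factor Atf3 (2.30, adjusted p = 0.0492), named for being the only one.

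The times were also compared with each other. Between 16 and 8 weeks and between 24 and 16 weeks no gene of the 14218 passed (0% in each), with 1235 and 1279 genes at an unadjusted p under 0.05, so the members had none to be read against. Within the arrays of the higher level 1.66% of all genes passed between 16 and 8 weeks (162 higher and 74 lower), and Rpl3 was the 1 member among them. The 16-week arrays of that level were replicates 1 and 2, the 2 highest of their group for Rpl3. Rpl3l was 0.70 lower at 16 than at 8 weeks (SE 0.22, adjusted p = 0.387) and Rpl3 0.45 higher (SE 0.15, adjusted p = 0.406). The ribosomal median was 0.08 at 16 against 8 weeks, and 0.04 without replicate 1 of 16 weeks, 0.05 without replicate 2 of 8 weeks and 0.14 without replicate 3 of 8 weeks. At 24 against 16 weeks it was −0.04, and 0.01 without replicate 4 of 24 weeks, −0.01 without replicate 1 of 16 weeks, −0.09 without replicate 1 and −0.06 without replicate 2 of 24 weeks, and 0.01 with array level as a block. Over all 16 arrays, that members passed at 16 weeks and not at 8 or 24 weeks is not a shown difference between the times.

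Markers of other cells also differed from control. Bulk ventricle cannot tell apart a change in the number of cells of a type from a change in RNA per cell. Of 10 macrophage markers 9 rose at 16 weeks, and their mean level per heart was 1.88 to 2.61 at 16 weeks, against 1.00 to 1.24 in control. Of 8 fibroblast markers 5 rose, with mean levels of 4.59 to 5.14 at 16 weeks, against 3.69 to 4.35 in control. None of the 7 cardiomyocyte markers passed. At 8 weeks 2 macrophage and no fibroblast markers rose, with mean levels of 1.76 to 2.05 and 4.24 to 4.73. The macrophage means of replicates 1 to 4 of 8 weeks were 1.76, 1.825, 2.05 and 2.01. Their medians over the bright ribosomal proteins were 0.08, 0.00, 0.26 and 0.00. At 24 weeks 4 macrophage markers and 1 fibroblast marker rose, with mean levels of 1.58 to 2.06 and 4.18 to 4.88. The macrophage means of replicates 1 to 4 of 24 weeks were 1.93, 2.02, 2.06 and 1.58. Their medians over the bright ribosomal proteins were 0.23, 0.16, 0.13 and −0.05. At 8 weeks the fibroblast list had a median difference of 0.60, which at 16 weeks was 0.49 and at 24 weeks 0.34. For the macrophage list these medians were 0.85, 1.08 and 0.74. Replicate 1 of 16 weeks, which was extreme for Rpl3, Rpl3l and the ribosomal median, had the highest macrophage mean (2.61) and the lowest cardiomyocyte mean (7.38) of the 16 hearts. Of lymphocyte, smooth muscle, erythroid and adipocyte markers none passed at 16 weeks, and 1 of 5 endothelial markers rose. The part of these cells in the values of the 96 genes was not tested.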

How the data were processed

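The authors deposited log2 expression values from RMA, made with Affymetrix Expression Console 1.2, for 31099 probe sets on 16 arrays, and these were the only values used. The labels number the hearts of a group and say no more of their independence, so p-values measure the spread between these samples, which may be partly technical. Each array was centred on its median. Probe sets with 1 symbol were kept, 1 per gene (14218 genes), and symbols came from the platform annotation. Groups were compared with limma 3.58.1 (R 4.3.3) in 1 fit of all 4 groups, with Benjamini-Hochberg adjustment over all genes and a threshold of 0.05. On data simulated for 16 weeks against control over 14218 genes the fit recovered 62% of 100 genes changed 1.5-fold and 90% of 50 changed 2-fold. The simulated noise was independent between genes and few genes were changed, unlike in these data, where recovery may differ. The members and gene lists were chosen with earlier results of these data known. The genes named were, by rule, up to 8 largest called rises and falls in each comparison with control, paralogs with their parents, fixed regulators of initiation and the 3 brightest and dimmest ribosomal proteins, and from the lists up to 3 by adjusted p at 16 weeks. Others are named as chosen after seeing their values, as are the limit of level 11, the windows at the starts and the adjustment over all probe sets. Same-numbered arrays did not deviate together as a rule (r from −0.322 to 0.236 over 24 pairs, 6 of them above 0.1), so numbers were not used as pairs. Replicate number as a block was 1 of the alternatives. Number of arrays limits the precision.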

Additional observations from a re-analysis of the deposited data

Results flagged for a closer look

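Each of 35 named genes and the medians of the 2 classes were examined in each group of 4 arrays for 1 array far from the other 3, and 10 of 148 groups had one, where chance gives about 1 in 20. At 24 weeks replicate 4 was low for Eif1a (2.85, the others 3.22 to 3.26) and for Eif1ax (4.25, the others 4.46 to 4.51), and replicate 3 was low by a small amount for Eif4g1 (3.72, the others 3.76). At 16 weeks replicate 3 was low for Eif1ax (4.38, the others 4.51 to 4.52) and replicate 4 for Eif4g2 (6.55, the others 6.67 to 6.68). Control replicate 3 was low for Eif5a (4.80, the others 5.06 to 5.10) and Rpl7 (6.54, the others 6.78 to 6.79). At 8 weeks replicate 3 was high for Rps24 (7.45, the others 7.23 to 7.24), for Rps29 (7.84, the others 7.66 to 7.67) and for the median over the initiation factors (0.0922, the others −0.02 to −0.01).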

How the results depend on the processing

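Rpl3 and Rpl3l passed at 16 weeks with any 1 array left out. Rpl3 did not pass with the dimmest probe set (adjusted p = 0.415), the mean of all probe sets (0.0554) or the methods' t-test with adjustment (0.108), and Rpl3l did not with that t-test (0.153). The calls of Eif4a1, Eif1a, Rps23 and Rps24 were less stable, passing in 18, 19, 11 and 13 of 30 alternatives. Rps24 turned to −0.0245 with its dimmest probe set.

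The 6 members called at 16 weeks became 2 on the arrays as deposited, 3 with only the 8 arrays compared, 3 with the mean of all probe sets, 2 with the dimmest probe set, 0 with the methods' t-test (2 before adjustment at their fold change and p, Rpl3 and Rpl3l), 2 with a fold change above 1.5, and 2 to 8 with 1 array left out (2 or 3 without any 1 control array or replicate 1 or 2 of 16 weeks). At 24 weeks, 0 became 3 as deposited (all lower, where 11.8% of all genes passed) and 2 with array weights (where 5.83% did). With 1 array left out it was 0 to 1. It was 1 without replicate 2 of 8 weeks or 4 of 24 weeks, where 1.02% and 3.925% of all genes passed. Between 16 and 8 weeks 0 became 1, Rpl3, within the arrays of the higher level, where 1.66% of all genes passed. The ribosomal median at 16 weeks was 0.0421 and at 24 weeks −0.087 as deposited, which are 0.16 and 0.12 above the median gene, and 0.23 at 24 weeks with array level as a block. With 1 array left out it ranged from 0.12 to 0.18 at 16 weeks and from 0.08 to 0.18 at 24 weeks. With the replicate block 6 members passed at 16 weeks, where 9.06% of all genes did, and no count moved by over 1.5 times. Rps23 and Rps24 did not pass with that block (adjusted p = 0.0632 and 0.0544). The causes were not tested. No other setting moved these counts or medians beyond their limits. Signal near the top of the scale may limit the size of a change, which was not tested.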
